A study of Mus musculus with 6 samples.

Results

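The transcripts described here are the miRNA genes and miRNA host transcripts of the mouse embryonic head. They were chosen by name and by count, as every entry of the deposited gene table whose symbol starts with *Mir* and a digit or with *Mirlet7*, and which had at least 10 counts in at least 3 of the 6 libraries. Of 1180 such symbols among the 24421 genes of the table, 121 met this minimum and 476 had no count in any library. The members comprise 117 hairpin entries and 4 host transcripts, *Mir17hg*, *Mir22hg*, *Mir99ahg* and *Mir143hg*.

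RNA was sequenced from E9.0 heads of WT embryos, labelled SnrpB +/+, and of *Snrpb* ncc+/- embryos (Het hereafter), with 3 libraries in each group and 2 pooled heads from different litters in each library. In Het embryos 1 copy of *Snrpb*, which encodes the spliceosomal SmB proteins, carries a deletion of its loxP-flanked exons wherever the Wnt1-Cre2 transgene is active, that is in the neural tube and in neural crest cells, whereas all remaining cells are unrecombined. The heads are therefore a mixture of deleted and normal cells, and a change in RNA per cell cannot be told apart from a change in the share of a cell type. Labels give the strain as C57BL/6 and name CD1 in a further field, and the embryos analysed were of mixed CD1 and C57BL/6J background. Whether the WT embryos carried the Cre transgene is not given in the sources used here.

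A miRNA is cut from a long primary transcript. In the nucleus Drosha and Dgcr8 release the hairpin, Xpo5 exports it, Dicer1 cuts it to a duplex, and 1 strand is loaded into an Ago protein, where the bases after the first, the seed, pair with target mRNAs. Many hairpins lie in introns of protein-coding genes and are cut from the unspliced or excised intron, whereas others lie in long non-coding host transcripts. In early embryos the miR-17-92 family is known for supporting growth and survival of progenitors, and let-7 miRNAs for rising as cells differentiate. The RNA here was column-purified, depleted of ribosomal RNA and fragmented into stranded total-RNA libraries, a method that reads long RNA. Such libraries are not made to capture RNA as short as a mature miRNA. A count at a hairpin can come from the primary or unspliced host transcript, and mature miRNA was not measured separately.

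Mature sequences, credited to RefSeq on build GRCm38.p6, were found for 111 of the 121 members, 186 arms in all with 168 different seeds. The seed, bases 2 to 8, is in capitals. The first group shares the let-7 seed, and is shown because its 3 hairpins in 1 cluster all had higher levels in Het libraries, whereas *Mirlet7i* had not.
let-7a-5p: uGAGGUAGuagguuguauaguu
let-7d-5p: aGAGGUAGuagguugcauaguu
let-7f-5p: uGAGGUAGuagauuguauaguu
let-7i-5p: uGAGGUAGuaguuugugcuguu
miR-98-5p: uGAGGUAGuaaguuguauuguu

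The next groups hold the seeds of the miR-17-92 family, whose hairpins are spread over *Mir17hg* on chromosome 14, an X-linked cluster, an intron of *Mcm7* and, for *Mir92b*, chromosome 3. The first 3 share the miR-17 seed, the next pair the miR-18 seed, the next pair the miR-19 seed, and the last 3 the miR-25 seed.
miR-17-5p: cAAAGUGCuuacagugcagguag
miR-20a-5p: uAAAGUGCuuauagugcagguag
miR-93-5p: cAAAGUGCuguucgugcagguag
miR-18a-5p: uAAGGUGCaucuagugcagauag
miR-18b-5p: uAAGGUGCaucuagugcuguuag
miR-19a-3p: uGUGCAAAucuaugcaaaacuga
miR-19b-3p: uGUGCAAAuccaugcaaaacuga
miR-25-3p: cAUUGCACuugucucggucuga
miR-92b-3p: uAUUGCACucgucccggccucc
miR-363-3p: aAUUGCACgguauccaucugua

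The sequences below belong to none of these seed groups, and are shown because their members were among those with the smallest *P*-values or the most reads. For *Mir301b* the table holds the 5p arm, whose seed is that of miR-301a-5p. Of a hairpin with both arms listed, the 5p arm is given.
miR-301b-5p: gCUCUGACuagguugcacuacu
miR-134-5p: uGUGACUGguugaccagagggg
miR-494-5p: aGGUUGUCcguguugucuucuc
miR-1197-5p: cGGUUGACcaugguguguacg
miR-1190: uCAGCUGAgguuccccucuguc
miR-335-5p: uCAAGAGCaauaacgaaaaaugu
miR-343: uCUCCCUUcaugugcccaga
miR-3064-5p: uCUGGCUGuuguggugugcaaa
miR-6516-5p: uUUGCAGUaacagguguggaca
miR-6975-5p: gCUGGGGAgaaagggguuuggca
miR-7237-5p: aUGGUAGCuugugacaggacuggc
miR-703: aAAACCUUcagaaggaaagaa
miR-682: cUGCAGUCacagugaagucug
miR-6236: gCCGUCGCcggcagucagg

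By position in Gencode M21 and RefSeq, both on GRCm38 (mm10), 51 members lie in an intron of a gene on the same strand, 16 in an exon, 5 in an exon of some transcripts only, and 28 in no gene on the same strand. A further 7 overlap a snoRNA or scaRNA entry of Gencode M21, in some cases one that carries the name of the member itself. Of the rest, 3 lie antisense to a gene only, and 2 overlap the end of a gene. For 5 (*Mir684-1*, *Mir467c*, *Mir5098*, *Mir3473a* and *Mir1191*) the order of the deposited table did not match the annotated chromosome, so their position was treated as uncertain.

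The 6 libraries held 36378803 to 58946111 counted reads in WT and 42398206 to 74909774 in Het. Levels are given in CPM, the counts of a gene scaled to a common library size with edgeR's TMM factors. *Snrpb*, the targeted gene, had 430, 438 and 414 CPM in WT and 436, 412 and 430 CPM in Het, with a log2 fold change of -0.0036 (SE 0.039), so total *Snrpb* counts did not separate the genotypes. WT replicate 1 stood apart in summed visceral endoderm markers (30.8 CPM against 9.31 to 10.5 in the others) and in summed cardiac markers (13.6 CPM against 39.9 to 148). All 9 head and neural crest markers were present in each library, with sums of 315 to 353 CPM. *Xist* lay at 0.37 CPM in Het replicate 2 and between 65.0 and 155 CPM in the others, so the pools differed in sex.

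Because the minimum of 10 counts chose the members on the same counts that are compared, and Het libraries were on average deeper, the choice was not neutral between the groups. All 3 Het libraries reached 10 counts for 98 members and all 3 WT libraries for 59. Of the members, 6 (*Mir423*, *Mir483*, *Mir544*, *Mir1190*, *Mir7669* and *Mir98*) passed through the 3 Het libraries with no WT library at 10, and 0 the other way round. Their higher values in Het follow from that choice. In all 6 libraries 58 members reached 10 counts. More Het than WT libraries did so for 55 members, and more WT than Het libraries for 1. Among the 55, *Mir343*, *Mir494*, *Mir1197*, *Mir6975* and *Mir7237* reached 10 counts in all 3 Het libraries but only 1 WT library. Their values are therefore not free of the choice either. Just inside the minimum, *Mir1249* had 3, 10 and 6 counts in WT and 4, 15 and 12 in Het. Just outside it, *Mir1967* had 5, 8 and 5 counts in WT and 9, 8 and 9 in Het. The counts and medians over members given below are therefore descriptions.

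Of the 121 members, 110 passed edgeR's filter on low counts and 91 of these had a higher level in Het than in WT, against 50.2% of all 15584 genes tested. The median log2 fold change, Het over WT, was 0.40 over members and 0.0004 over all genes tested, and single members ranged from -0.79 to 1.69. None passed an adjusted *P* of 0.05 with edgeR's quasi-likelihood test, where 1 gene of the whole table (0.00642%) did. DESeq2 called 2 members, *Mir17hg* and *Mir1949*, both higher in Het, against 0.651% of all genes it adjusted in either direction and 0.434% in this one. Most members, among them the let-7 hairpins, *Mir134* and *Mir363*, were given no adjusted *P* by DESeq2 and so could not be called by it. At an unadjusted edgeR *P* under 0.05 there were 23 members higher in Het, 20.9% of those tested beside 4.34% of all genes, and 0 lower beside 4.09%. The 23 became 7 without Het replicate 2, and 18 to 26 without any other library.

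The precision for single members was low. The median member had a mean count of 25.3 per library and an SE of 0.31 on the log2 scale, against 0.087 for the median gene. Among the 58 members with 10 counts in every library, 48 were higher in Het and the median log2 fold change was 0.38. Genes outside the miRNA entries with a mean under 1 CPM also leaned upwards, with a median of 0.13 and 1491 of 2356 higher in Het. At an unadjusted edgeR *P* under 0.05, 137 of these 2356 genes were higher and 39 lower. Of the 89 members under 1 CPM, 14 were higher and 0 lower at that limit. Members under 1 CPM had a median of 0.40 (75 of 89 higher), and the 21 members at 1 CPM or more had 0.41 (16 higher). Other genes at 1 CPM or more had -0.0052, but they were not at a like level. Their median count was 1463, against 118 for the 21 members. The part of low counts in the members' shift was not tested.

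**Figure D1:**
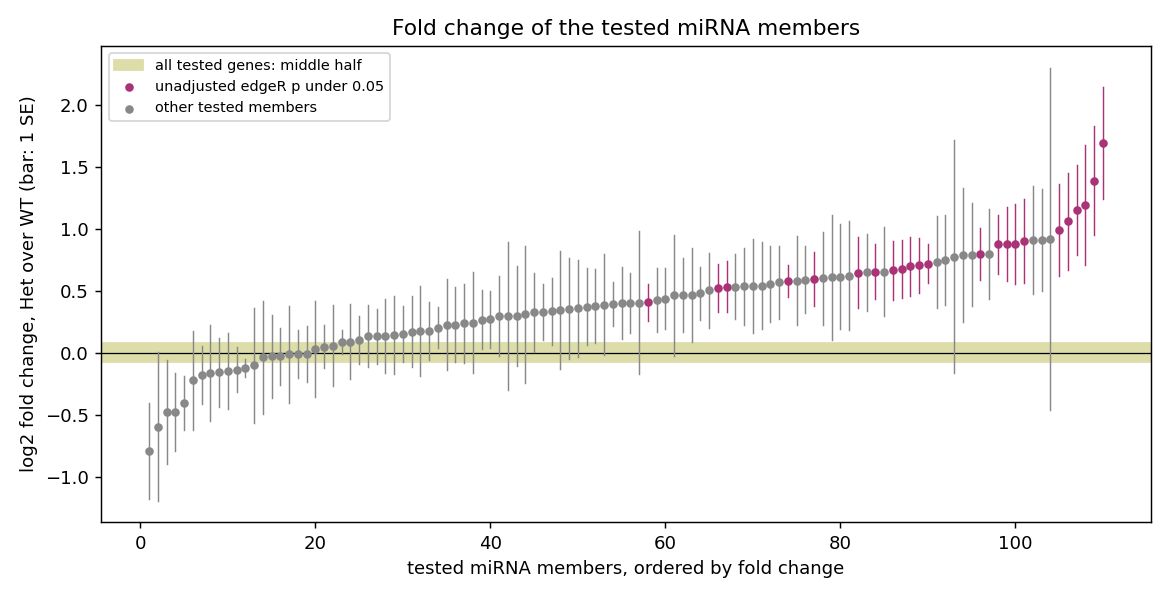
Log2 fold change, Het over WT, of the 110 tested members ordered by size, with bars of 1 SE and a band from the lower to the upper quartile of all tested genes. The 23 purple points have an unadjusted edgeR *P* under 0.05 and all lie above 0, and 19 of the 110 points lie below 0.

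The shift was seen in each library. The median member deviated from its own mean over libraries by -0.086, -0.094 and -0.29 log2 units in WT replicates 1 to 3, and by 0.16, 0.28 and 0.14 in Het replicates 1 to 3. All 3 Het libraries lay above all 3 WT libraries, WT replicate 3 being lowest and Het replicate 2 highest. The 3 hairpins with the most reads, *Mir6236*, *Mir703* and *Mir682*, had log2 fold changes of -0.12 to 0.086. The summed level of all member hairpins was 107.1, 101.5 and 100.8 CPM in WT and 127.6, 128.6 and 114.0 CPM in Het. Without these 3 it was 64.9, 64.4 and 58.6 CPM in WT and 82.1, 90.6 and 76.8 CPM in Het. Leaving out 1 library at a time gave a median log2 fold change over members of 0.31 (without WT replicate 3) to 0.47 (without WT replicate 1).

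**Figure D2:**
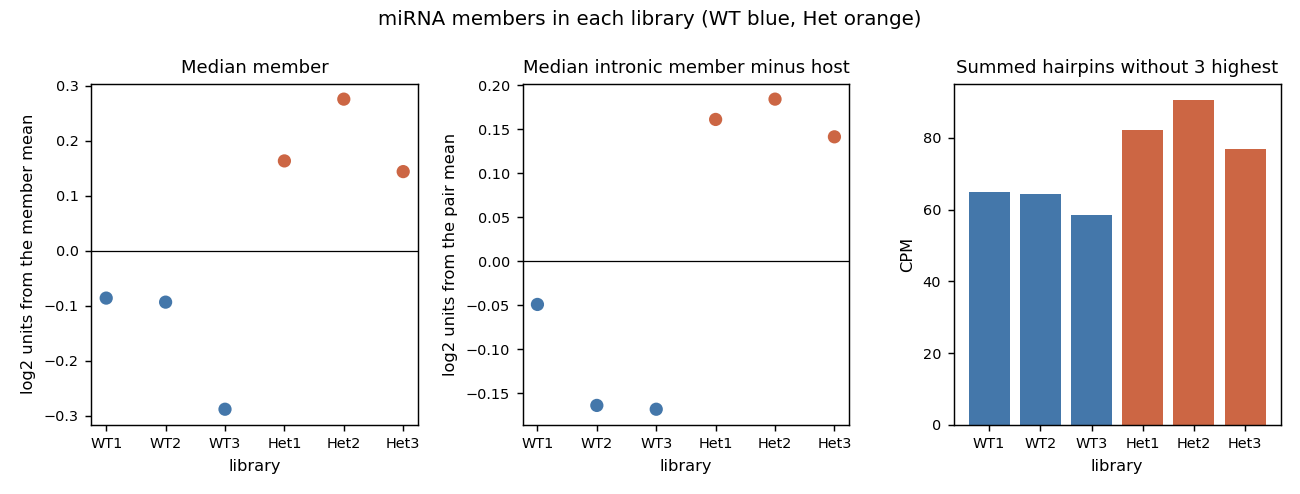
Left and middle, log2 deviation of the median member and of the median intronic member relative to its host gene in each library. Right, summed CPM of member hairpins without the 3 highest, from 58.6 in WT replicate 3 to 90.6 in Het replicate 2, with all Het libraries above all WT libraries in the 3 panels.

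In 30 of 110 members (27.3%) all Het libraries lay above all WT libraries, beside 8.32% of all genes tested, and in 1 member (0.909%) all lay below, beside 6.92%. Among other genes under 1 CPM they lay above in 244 of 2356 and below in 90. For members under 1 CPM these numbers were 21 of 89 and 1. The 1 member below was *Mir6399*, in an intron of *Eif4g3*, with 0.25, 0.27 and 0.22 CPM in WT and 0.17, 0.20 and 0.16 CPM in Het. It is named after its values were seen, and its edgeR unadjusted *P* was 0.174.

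Of the host transcripts, *Mir17hg* is the precursor of the miR-17-92 hairpins (chr14:115042879-115046727, + strand, in Gencode M21). It had 1591, 3094 and 1477 counts in WT and 2861, 5866 and 3959 in Het, or 43.7, 52.7 and 39.9 CPM against 67.7, 77.2 and 59.6 CPM. The lowest Het library lay above the highest WT library. The means were 45.4 ± 6.56 and 68.2 ± 8.81 CPM (SD, n = 3), a log2 fold change of 0.58 (SE 0.13). With edgeR the unadjusted *P* was 0.00333 and the adjusted *P* 0.420, whereas DESeq2 gave an adjusted *P* of 0.00046, so the call depended on the tool.

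*Mir22hg*, the host of *Mir22*, had 0.58, 0.75 and 0.51 CPM in WT and 0.97, 1.17 and 0.84 CPM in Het, without overlap, and a log2 fold change of 0.68 (SE 0.24, edgeR adjusted *P* = 0.483). *Mir143hg*, the smooth muscle transcript also named *Carmn*, had 0.36, 0.87 and 0.32 CPM in WT and 0.59, 0.79 and 0.96 CPM in Het, and the groups overlapped. Its log2 fold change was 0.54 (SE 0.38), and 1.21 without WT replicate 2. *Mir99ahg*, which hosts *Mir99a* and *Mirlet7c-1*, had 0.77, 0.17 and 0.19 CPM in WT and 0.28, 0.55 and 0.54 CPM in Het. Its log2 fold change of 0.40 (SE 0.57) depended on which WT library was kept, being 1.40 without WT replicate 1, -0.016 without WT replicate 2 and 0.12 without WT replicate 3.

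Inside the *Mir17hg* locus, 5 hairpins were members, and in all 5 the Het libraries lay above the WT libraries, beside 8.32% of all genes tested, with a median log2 fold change of 0.52. *Mir19a* had 1.43, 2.40 and 2.51 CPM in WT and 3.46, 3.55 and 2.66 CPM in Het, a log2 fold change of 0.60 (SE 0.22). *Mir17*, a hairpin of 84 bases, had 1.24, 1.07 and 0.84 CPM in WT and 1.40, 1.67 and 1.44 CPM in Het, a log2 fold change of 0.52 (SE 0.19). Their edgeR adjusted *P* values were 0.501 and 0.503.

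*Mir18*, *Mir20a* and *Mir19b-1* had log2 fold changes of 0.48, 0.44 and 0.75, and none of them had an unadjusted *P* under 0.05. *Mir92-1*, the hairpin at the end of the cluster, had 0 counts in every library, which allows up to 3 counts in each by counting error alone. In RefSeq the *Mir17hg* gene starts at the end of *Mir19b-1* and covers *Mir92-1*, whereas in Gencode M21 it covers every hairpin, and how reads of both were assigned is not given in the sources used here. The transcript and its hairpins may therefore share reads and are not independent.

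Related hairpins lie at other loci. In the X-linked cluster, *Mir363* had 0.14, 0.22 and 0.38 CPM in WT and 0.50, 0.67 and 0.45 CPM in Het, a log2 fold change of 1.15 (SE 0.36, edgeR adjusted *P* = 0.437), and *Mir18b* had 0.65 (SE 0.36). The groups did not overlap for *Mir363* and overlapped for *Mir18b*. *Mir93* and *Mir25*, both in an intron of *Mcm7*, had 0.50 (SE 0.30) and 0.33 (SE 0.27), with overlap. *Mcm7* itself, a subunit of the replicative helicase, had a log2 fold change of -0.014 (SE 0.036). Sex-linked genes moved with these groups in part, since the pools differed in sex and *Uty*, on the Y chromosome, was higher in all Het libraries. Their part in the X-linked values was not tested.

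**Figure D3:**
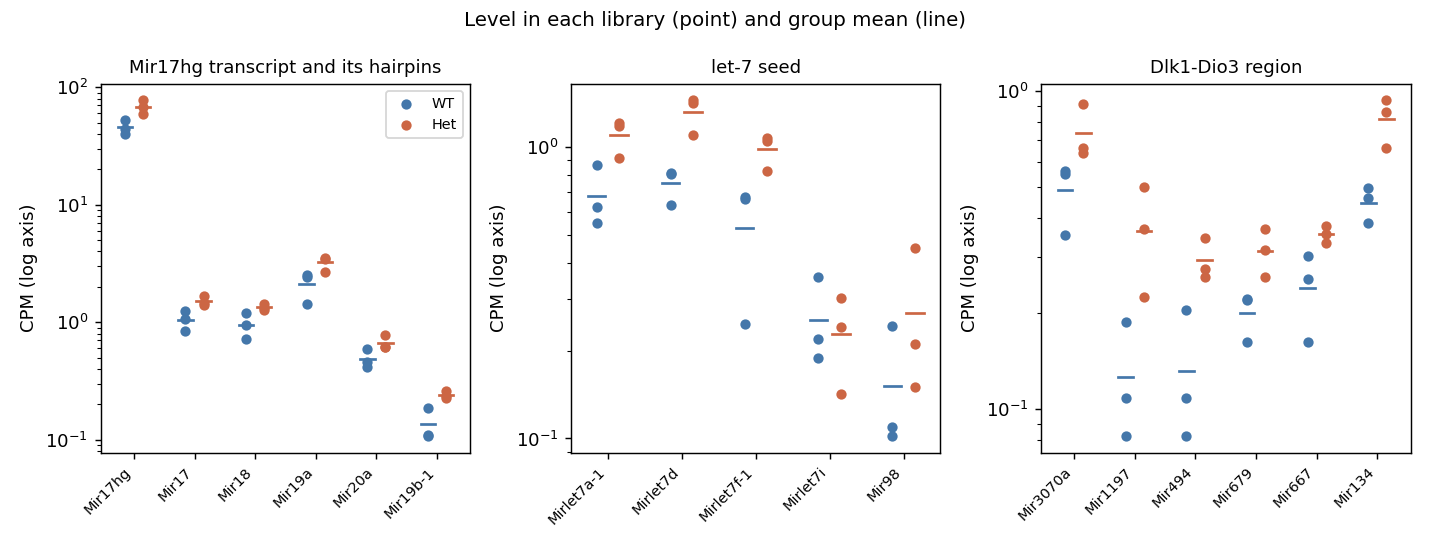
CPM on a log axis in each library (points) with group means (lines), for *Mir17hg* with its 5 member hairpins, for members with the let-7 seed, and for the 6 Dlk1-Dio3 hairpins whose groups do not overlap. In the left panel every Het point lies above every WT point of the same gene, and *Mirlet7i* and *Mir98* overlap. In the right panel this separation was the ground for showing these 6 of the 18 tested hairpins of the region.

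The let-7 seed was carried by 5 members. The 3 of them that form a cluster on chromosome 13, in an exon of the non-coding gene *6720427I07Rik*, were higher in Het without overlap. *Mirlet7d* had 0.63, 0.82 and 0.81 CPM in WT and 1.42, 1.45 and 1.10 CPM in Het, a log2 fold change of 0.80 (SE 0.21, edgeR unadjusted *P* = 0.00384, adjusted *P* = 0.424). *Mirlet7f-1* had 0.25, 0.66 and 0.68 CPM in WT and 0.83, 1.08 and 1.05 CPM in Het, a log2 fold change of 0.88 (SE 0.32). *Mirlet7a-1* had 0.55, 0.87 and 0.62 CPM in WT and 1.18, 1.21 and 0.92 CPM in Het, a log2 fold change of 0.67 (SE 0.24).

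The other two members of the seed lie apart. *Mirlet7i*, which lies in no gene on its strand, had 0.22, 0.36 and 0.19 CPM in WT and 0.14, 0.30 and 0.24 CPM in Het, a log2 fold change of -0.16 (SE 0.39). *Mir98*, in an intron of the X-linked gene *Huwe1*, had 0.79 (SE 0.54) and overlapping groups. The difference between the cluster and *Mirlet7i* was not tested.

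The imprinted Dlk1-Dio3 region of chromosome 12 held 18 tested members, all higher in Het, with a median log2 fold change of 0.60. Of these, 4 had an unadjusted *P* under 0.05, beside 4.34% of all genes tested, and 6 had groups that did not overlap, beside 8.32%. Among the 4, *Mir544* met the count minimum through Het libraries only. *Mir134*, in an exon of *Mirg*, had 0.38, 0.49 and 0.46 CPM in WT and 0.66, 0.93 and 0.86 CPM in Het, a log2 fold change of 0.87 (SE 0.24, edgeR unadjusted *P* = 0.00519, adjusted *P* = 0.433). *Mir1197* had 3, 11 and 4 counts in WT and 21, 28 and 15 in Het, a log2 fold change of 1.39 (SE 0.44). *Mir494* had 3, 12 and 4 counts in WT and 11, 21 and 23 in Het, a log2 fold change of 1.06 (SE 0.39).

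The long transcripts of the region are made from the maternal copy, as the hairpins are. *Rian* had a log2 fold change of 0.050 (SE 0.067), *Mirg* 0.12 (SE 0.12) and *Meg3* 0.24 (SE 0.15), and the groups overlapped for each. The members of 1 region come from long shared transcripts and are not independent of one another. Without this region the median over the remaining members was 0.36.

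For 40 intronic members the host gene was tested too, 37 hosts in all. Per library, the level of the hairpin was set against that of its host as a log2 ratio, which asks whether a change in the hairpin goes beyond one in the mature host mRNA. Het libraries had the higher mean ratio in 32 pairs and the lower in 8, and the median difference was 0.32 log2 units. The median hairpin had a log2 fold change of 0.34 and the median host 0.0033. The median pair deviated by -0.049, -0.16 and -0.17 in WT and by 0.16, 0.18 and 0.14 in Het, without overlap. The ratio sets low counts against high ones, with a median count of 17.8 for tested intronic members and 4709 for host genes. Other genes under 1 CPM also leaned upwards, with a median log2 fold change of 0.13. Of the pairs, *Mir1190*, *Mir483*, *Mir98* and *Mir7669* met the count minimum through Het libraries only. The part of these limits in the difference was not tested.

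Among named pairs, *Mir1190* and its host *Ccdc88c*, a regulator of Wnt signaling, differed most. *Mir1190* had 5, 3 and 3 counts in WT and 12, 16 and 23 in Het, a log2 fold change of 1.69 (SE 0.45), and *Ccdc88c* had 0.051 (SE 0.066). The difference of the log2 ratio was 1.29. *Mir1190* met the count minimum through Het libraries only, so this is a description and no test of it is given.

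*Mir7237*, in an intron of the *Banp* gene, had 6, 11 and 3 counts in WT and 11, 27 and 18 in Het, a log2 fold change of 0.99 (SE 0.37), while *Banp* had -0.15 (SE 0.10). *Mir6975* abuts an exon of *Ddx39b*, an RNA helicase of the spliceosome and mRNA export. It had 6, 17 and 9 counts in WT and 16, 34 and 32 in Het, a log2 fold change of 0.88 (SE 0.30), and *Ddx39b* had -0.10 (SE 0.034), lower in all Het libraries. In both pairs the hairpin and the host pointed in opposite directions. Both hairpins reached 10 counts in 3 Het libraries but only 1 WT library.

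*Mir335* lies in an intron of *Mest*, an imprinted gene active in mesoderm. It had 2.88, 2.26 and 2.89 CPM in WT and 3.46, 3.92 and 3.22 CPM in Het, a log2 fold change of 0.41 (SE 0.15), and *Mest* had -0.11 (SE 0.040), again with groups apart in opposite directions. *Mir301b* had 0.66, 0.58 and 0.70 CPM in WT and 0.76, 1.12 and 1.22 CPM in Het, a log2 fold change of 0.70 (SE 0.24), and its host *2610318N02Rik* 0.12 (SE 0.066). *Mir1894*, in an intron of the phosphatase subunit gene *Ppp1r10*, had 0.20 (SE 0.17) with overlapping groups. Because these hairpins were named for their own values in the same libraries, the ratios of single pairs were not tested.

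**Figure D4:**
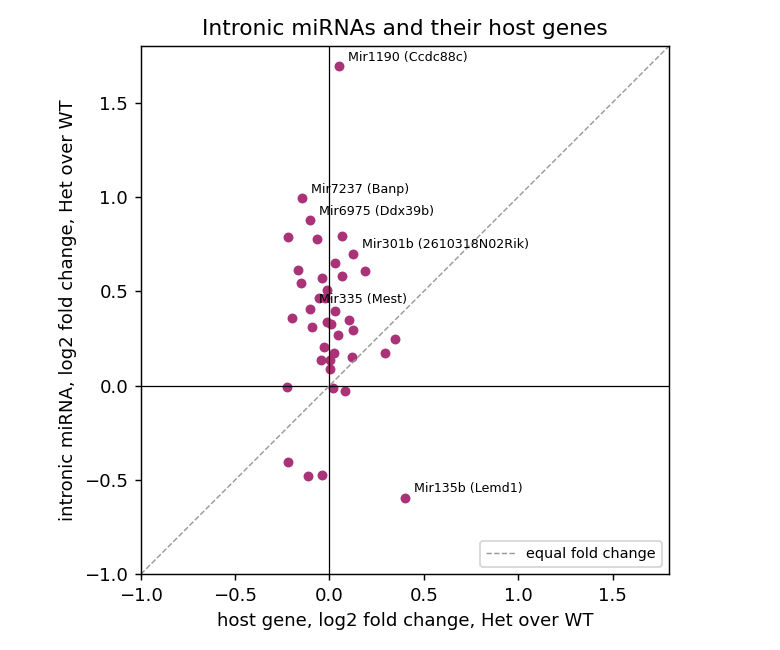
Log2 fold change, Het over WT, of 40 intronic hairpins (vertical axis) against that of their host genes (horizontal axis). Hosts lie close to 0, most hairpins lie above the dashed line of equal change, and *Mir1190* is the highest point at 1.69.

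The 9 tested hairpins that abut an exon of their host had a median log2 fold change of 0.18 (7 higher), and the 33 that lie deeper in the intron had 0.35 (27 higher). The 16 members in exons had a median of 0.50, and the 27 in no gene on the same strand 0.56. Most of the 16 lie in *Mir17hg*, the let-7 cluster or *Mirg*, and many of the 27 in the Dlk1-Dio3 region. These classes are therefore largely made of a few clusters whose members are not independent. These differences between positions were not tested.

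*Mir3064* lies in an exon of some transcripts of *Ddx5*, which encodes a helicase that works with Drosha. It had 1.84, 2.35 and 1.54 CPM in WT and 3.55, 3.63 and 2.29 CPM in Het, so that the highest WT library lay just above the lowest Het library, and a log2 fold change of 0.71 (SE 0.22, edgeR adjusted *P* = 0.446). *Ddx5* had 0.047 (SE 0.032). *Mir343*, in an exon of some transcripts of *Ercc2*, had 8, 21 and 6 counts in WT and 17, 44 and 30 in Het, a log2 fold change of 0.90 (SE 0.34), and *Ercc2*, a helicase of DNA repair, had -0.093 (SE 0.065).

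The 7 tested members that overlap a snoRNA or scaRNA entry were all higher in Het, with a median of 0.37. For *Mir6516*, *Mir1291* and *Mir5121* this entry is a separate RNA, to which their reads may belong. For *Mir677*, *Mir3068*, *Mir1949* and *Mir1839* it carries the name of the member itself. *Mir1949*, inside the RefSeq span of *Snhg4*, had 4.94, 5.02 and 4.84 CPM in WT and 7.03, 10.3 and 7.03 CPM in Het. The WT libraries lay close together and all Het libraries above them, with a log2 fold change of 0.72 (SE 0.16). The edgeR adjusted *P* was 0.309 and that of DESeq2 0.0117. *Snhg4* had a log2 fold change of 0.32 (SE 0.065, edgeR adjusted *P* = 0.302, DESeq2 adjusted *P* = 0.0240), and it too was higher in all Het libraries. *Mir6516*, whose host *Snhg20* had 0.40 (SE 0.13), had 1.57, 2.50 and 2.51 CPM in WT and 3.77, 4.00 and 2.68 CPM in Het, a log2 fold change of 0.65 (SE 0.22).

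The 3 hairpins with the most reads, *Mir6236*, *Mir703* and *Mir682*, had values close to 0, and the next by reads, *Mir1949* and *Mir335*, had 0.72 and 0.41. *Mir6236* had 718, 863 and 700 counts in WT and 950, 1348 and 997 in Het, or 17.8 ± 2.70 and 18.4 ± 3.79 CPM (SD, n = 3), with a log2 fold change of 0.050 (SE 0.17) that changed sign without WT replicate 2 or Het replicate 1. *Mir703* had 16.0, 15.7 and 16.9 CPM in WT and 15.7, 13.8 and 15.1 CPM in Het, a log2 fold change of -0.12 (SE 0.073). *Mir682* had 236, 390 and 237 counts in WT and 308, 493 and 465 in Het, or 6.51 ± 0.12 and 6.92 ± 0.41 CPM, a log2 fold change of 0.086 (SE 0.094). The groups overlapped for each. Counts per entry depend on its length and are not compared between members.

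Of the 19 tested members with lower levels in Het, none had an unadjusted edgeR *P* under 0.05. The lowest value was that of *Mir5099*, with 1.40, 0.66 and 0.54 CPM in WT and 0.59, 0.36 and 0.56 CPM in Het, a log2 fold change of -0.79 (SE 0.39) and overlapping groups. *Mir135b*, in an intron of *Lemd1*, had -0.59 (SE 0.60), and *Mir3113*, in an intron of *Huwe1*, -0.40 (SE 0.22). These 3 are named after their values were seen. The 11 members that edgeR's filter removed had log2 fold changes of -0.34 (*Mir7675*) to 0.87 (*Mir423*) in the fit without a filter.

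The genes that make and use miRNAs were examined as a list of their own. Of 29 tested, listed from general knowledge, 0 passed an adjusted *P* of 0.05 with edgeR or DESeq2, and the median log2 fold change was 0.0088. *Drosha* had 0.038 (SE 0.047), *Dgcr8* 0.072 (SE 0.040), *Dicer1* -0.033 (SE 0.065) and *Ago2* -0.11 (SE 0.21). The let-7 inhibitors *Lin28a* and *Lin28b* had 0.069 (SE 0.061) and -0.015 (SE 0.039).

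In the list, 4 genes had an unadjusted edgeR *P* under 0.05, all lower in Het, beside 8.43% of all genes in either direction. *Xpo5* had a mean of 225 ± 1.57 CPM in WT and 204 ± 11.2 CPM in Het (SD, n = 3), a log2 fold change of -0.15 (SE 0.046). *Ago1* had -0.17 (SE 0.056), the let-7 processing factor *Khsrp* -0.17 (SE 0.071), and the chaperone gene *Hsp90ab1* -0.080 (SE 0.032). Their edgeR adjusted *P* values lay between 0.437 and 0.586.

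**Figure D5:**
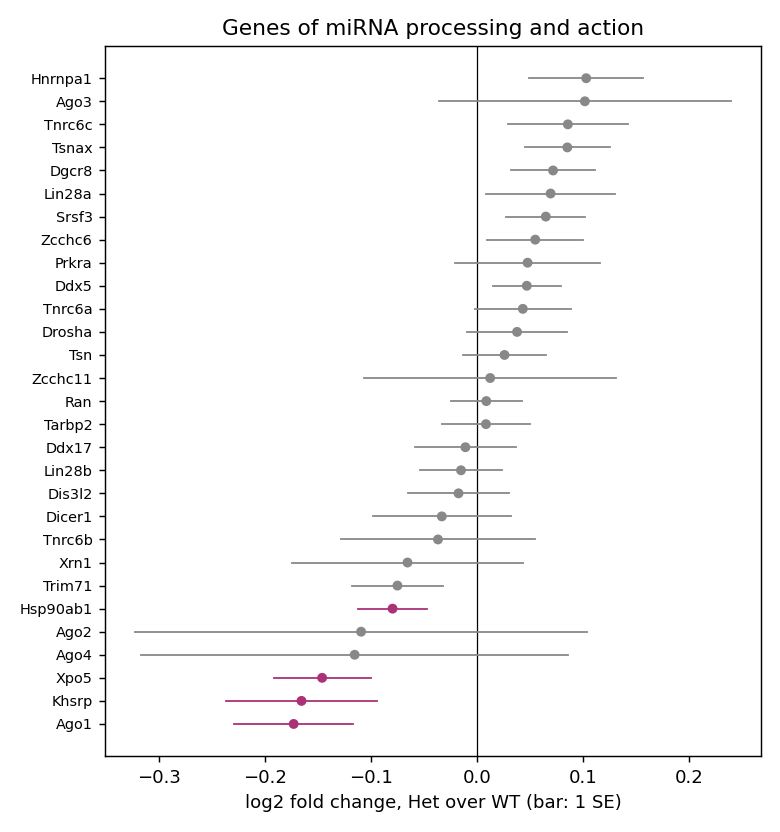
Log2 fold change, Het over WT, of 29 genes of miRNA processing and action, with bars of 1 SE. All lie between -0.17 and 0.10, and the 4 purple points, with an unadjusted edgeR *P* under 0.05, are below 0.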

How the data were processed

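The deposited values are raw counts per gene symbol, whole numbers without normalization, in 3 WT and 3 Het libraries. According to the study the reads were trimmed, mapped to mm10 with STAR and counted with HTSeq on Gencode M2, whereas the submitters' processing notes name featureCounts. The strand setting is not given in the sources used here, so overlapping and antisense entries may share reads. Libraries were grouped by their genotype labels. Each library is a separate pool of heads, and *P*-values measure the spread between pools.

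The test across all genes was edgeR's robust quasi-likelihood test (version 4.0.16 in R version 4.3.3, TMM, filterByExpr, two-sided), with Benjamini-Hochberg adjustment over 15584 genes and a threshold of 0.05. DESeq2 (version 1.42.0) was the alternative. Log2 ratios used CPM with a prior count of 2, and the fit was tested on simulated data. Named members were the host transcripts, those called by either tool, up to 20 with an unadjusted *P* under 0.05, the 10 with the most reads, and the hosts of these. Members and lists were chosen with earlier results of these data known. Alternatives were DESeq2, its size factors, other count filters, a replicate block and each library left out. Library-size scaling and subsets of members were added after seeing the data.

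No 2 libraries of a group agreed within sampling noise, so none was counted as a duplicate.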

Additional observations from a re-analysis of the deposited data

How the results depend on the processing

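The median log2 fold change over members stayed between 0.31 and 0.47 under every alternative run. Over all genes the number called was 1, against 84 with DESeq2, 11 without a filter, and 0 to 6 with 1 library left out. Of the members, DESeq2 called 2, and a fit with the replicate block called 1, *Mir17hg*, whose adjusted *P* was then 0.0380 and which was the 1 gene called over the whole table, in place of *A3galt2*. Whether the replicate numbers pair the libraries is not given in the sources used here. Same-numbered deviations correlated by 0.17, 0.032 and 0.36, and 4 of 6 libraries correlated best with their own number, a hint from the data only. Members whose groups do not overlap numbered 31 of 110 tested, beside 8.32% of all genes tested that were higher and 6.92% lower. With at least 10 counts in every library they numbered 18 of 58, as they did among the 58 members with 10 counts in all 6 libraries. With 1 library left out they numbered 39 to 56 of 105 to 120 tested, where fewer samples make a gap easier. The share over all genes was not counted with that filter or with a library left out. These numbers therefore cannot be set against it. With at least 10 counts in every library, fewer pairs remained and the intronic difference was 0.25 log2 units, and 16 of the 17 named members still tested were higher, in place of 25 of 26. *Mir99ahg* was 1.40 without WT replicate 1 and reversed to -0.016 without WT replicate 2, and *Mir6236* to -0.077 without WT replicate 2 and -0.11 without Het replicate 1. The members with an unadjusted *P* under 0.05, 23 in all, fell to 7 without Het replicate 2, and numbered 18 to 26 without any other. No other member's call changed under the block. The causes of these changes were not tested. Depth limits single members, since the median member had 25.3 counts per library.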

Other observations

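A pair of members on chromosome 10 differed between libraries within both groups. *Mir1931*, in an intron of *Cdk17*, had 22, 34 and 2 counts in WT and 60, 55 and 10 in Het, and *Mir7688* had 21, 24 and 0 counts in WT and 46, 67 and 0 in Het. The third library of each group was the lowest for both hairpins, while *Cdk17* had 61.0, 61.8 and 63.9 CPM in WT and 60.1, 60.5 and 58.1 CPM in Het. The pair was chosen after its values were seen, and no test was run. *Mir34a*, *Mir34b* and *Mir34c*, whose genes are known targets of p53, were no members, with at most 3 counts in any library.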
